A study of Mus musculus with 6 samples.

Results

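Midkine (Mdk) and pleiotrophin (Ptn), together with 8 receptors or surface partners through which they are known to act, were followed in 2 cell populations sorted from mouse small-cell lung cancer. The receptors were the phosphatase Ptprz1, the kinase Alk, the syndecans Sdc1, Sdc2, Sdc3 and Sdc4, the endocytic receptor Lrp1 and nucleolin (Ncl). The genes were taken from a fixed list of 10, all 10 of which were found among the 22179 genes measured, each by the array row that names that gene alone and has the highest mean. Only Sdc1 had a second row. GFP-high cells, with strong expression of a GFP reporter allele for Hes1, a target of Notch signalling, were compared with GFP-negative cells, whose reporter status is labelled negative or low. Both populations came from the same kind of tumour: conditional Rb, p53 and p130 alleles were deleted in all animals by adenoviral Cre given into the trachea, and tumours were taken 5 to 6 months later. Tumours from 3 mice were pooled for sorting, and 3 samples of each population were hybridised to Mouse Gene 2.0 ST arrays. The sources used here give no strain, age, sorting gates or cell of origin reached by the virus. The sample titles number the samples of each population as biological replicates. Whether each sample came from its own pool is not stated. The p-values thus measure the spread between these samples, which may in part be technical.

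Midkine and pleiotrophin are the only members of a small family of secreted, heparin-binding growth factors. They are abundant in the embryo and in the developing nervous system, where they promote neurite outgrowth, cell migration and survival, and midkine is raised in many carcinomas. Both bind the chondroitin sulfate chains of PTPRZ1, a transmembrane tyrosine phosphatase that pleiotrophin inactivates by clustering, and the heparan sulfate chains of syndecans. ALK, LRP1 and cell surface nucleolin have also been described as receptors.

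The arrays separated by population. Across 22179 genes, which are not independent points, the correlation of log2 values was 0.987 to 0.991 within a population and 0.918 to 0.940 between populations. For GFP-negative cells the tumour cell label was borne out by neuroendocrine markers, which were high there. For GFP-high cells, where these markers were lower, the label was not tested. Chromogranin A (Chga) read 9.17 ± 0.49 in GFP-high cells, against 11.47 ± 0.14 in GFP-negative cells (SD, n = 3 each). All 10 measured neuroendocrine markers fell in GFP-high cells, against 17% of all genes called lower. Their summed level on the linear scale was 1906 to 3833 in GFP-high arrays and 11188 to 12813 in GFP-negative arrays. Ciliated markers were mixed: of 7 measured, 1 was higher, 2 were lower and 4 did not pass (median -0.24). Club and alveolar markers of the lung epithelium went the other way from the neuroendocrine markers, against 13% of all genes called higher. Of club and secretory markers 8 of 10 rose, as did 9 of 10 alveolar type 2 and 10 of 10 alveolar type 1 markers. Their summed levels were 44242 to 49147, 16313 to 20167 and 8249 to 9374 in GFP-high arrays, against 4480 to 7358, 1518 to 1828 and 1936 to 2459 in GFP-negative arrays. GFP-high replicate 3 stood apart, with a median difference from the GFP-negative mean of -1.59 over the neuroendocrine markers, against -2.49 and -2.54 in GFP-high replicates 1 and 2. RMA values have no zero, and the array medians lay between 5.30 and 5.43, which serves below as a mark of the middle of the scale. Values near or below it may be close to background, which the deposited values do not mark. The marker lists of other cell types were mixed. Of 8 leukocyte markers 7 averaged above 5.43 in GFP-high cells and 5 in GFP-negative cells, while Ptprc, the common leukocyte antigen, averaged 4.59 in GFP-high cells, against 5.05 in GFP-negative cells. Of 10 endothelial markers 4 were above that mark in either population, and Pecam1 (5.36 in GFP-high, 5.42 in GFP-negative) and Cdh5 (5.07 in GFP-high, 5.02 in GFP-negative) were not. Of 10 fibroblast markers 5 were above it in GFP-high cells and 3 in GFP-negative cells. One or a pair of genes carried most of the leukocyte, endothelial and fibroblast sums, except for the leukocyte sum in GFP-negative arrays. There the leading pair, Lcp1 and Coro1a, made up 36.8% to 48.3%. The leukocyte sum was 1049 to 1334 in GFP-high arrays, of which Lcp1 made up 65.0% to 70.0%, and 492 to 564 in GFP-negative arrays; without Lcp1 it was 315 to 442 in GFP-high and 408 to 459 in GFP-negative arrays. The endothelial sum was 1227 to 1539 in GFP-high arrays and 1312 to 1727 in GFP-negative arrays, and without Vwf and Kdr 257 to 267 in GFP-high and 265 to 291 in GFP-negative arrays. The fibroblast sum was 762 to 1633 in GFP-high arrays and 1702 to 2605 in GFP-negative arrays, and without Dcn 298 to 410 in GFP-high and 281 to 443 in GFP-negative arrays. The part of these marker differences in the results below was not tested. In such samples fewer cells of a type and less RNA per cell cannot be told apart.

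The ligands moved in opposite directions, and the receptors split. In GFP-high cells Mdk rose together with Sdc1, Sdc4 and Lrp1, whereas Ptn fell together with Ptprz1 and Sdc3. Alk, Sdc2 and Ncl did not pass the test. Thus 4 of the 10 genes were higher and 3 lower at an adjusted p under 0.05 (limma, Benjamini-Hochberg over all genes), 7 in all, against 30% of all 22179 genes called, 13% as higher and 17% as lower. The 3 values of each population did not overlap for 7 of the 10 genes, against 44.6% of all genes. The median log2 fold change of the 10 genes was 0.03, and that of all genes was 0.01. Without GFP-high replicate 3 the counts were again 4 higher and 3 lower. Tested against a minimum absolute log2 fold change of 1, only Sdc1, Lrp1, Ptprz1 and Ptn passed, 4 of the 10 genes, against 4.79% of all genes.

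**Figure D1:**
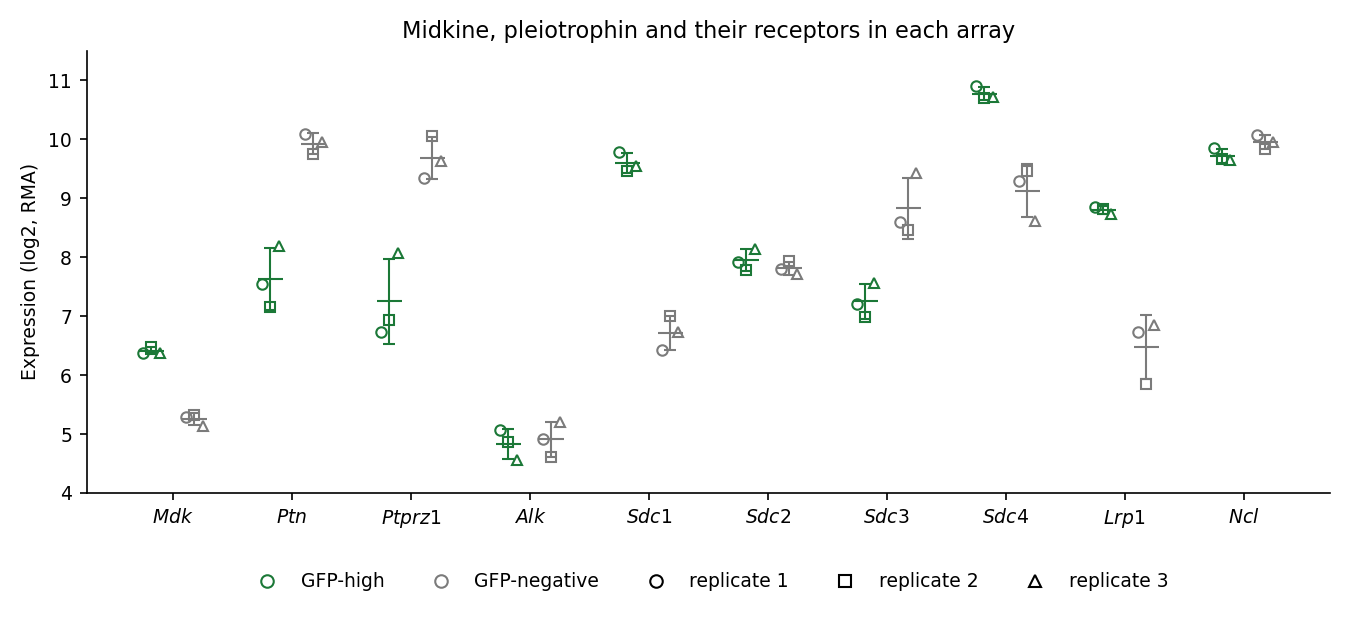
Log2 expression (RMA, vertical axis) of each gene in the 3 GFP-high arrays (green, left) and the 3 GFP-negative arrays (grey, right); symbols mark replicates and bars show the mean ± SD. Mdk, Sdc1, Sdc4 and Lrp1 lie higher and Ptn, Ptprz1 and Sdc3 lower in every GFP-high array than in any GFP-negative array.

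**Figure D2:**
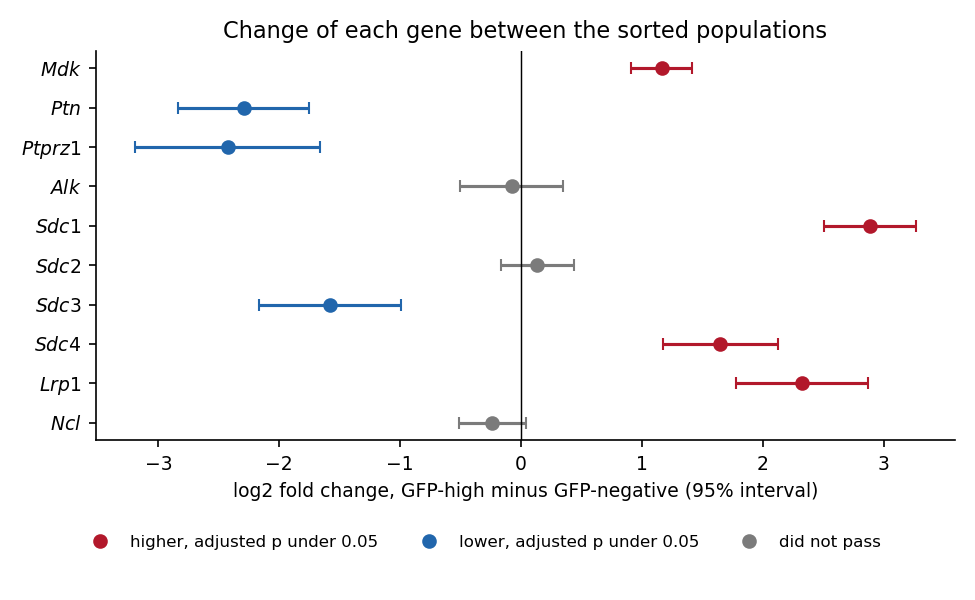
Log2 fold change of each gene, GFP-high minus GFP-negative (horizontal axis), with its 95% interval from the limma fit. The intervals of Alk, Sdc2 and Ncl include 0, and Sdc1 has the highest estimate at 2.88.

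Midkine was higher in GFP-high cells. Its log2 values were 6.38, 6.48 and 6.38 in the 3 GFP-high arrays, against 5.29, 5.33 and 5.13 in the 3 GFP-negative arrays. The GFP-negative values lay at or just below the middle of the array's scale and may be close to background, the GFP-high values lay above it, and there was a gap of 1.05 between the nearest arrays. The log2 fold change was 1.16 ± 0.11 (SE), or 2.24-fold, with an adjusted p of 0.000101 by limma. Mdk varied least among the genes that passed: its SDs were 0.06 in GFP-high cells, against 0.10 in GFP-negative cells, and GFP-high replicate 3 did not depart from the other GFP-high arrays.

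Pleiotrophin was lower in GFP-high cells and high in GFP-negative cells. It read 7.55, 7.15 and 8.18 in the GFP-high arrays, against 10.09, 9.74 and 9.95 in the GFP-negative arrays. All 6 values were above the middle of the scale, so Ptn was reduced in GFP-high cells and still measurable there. The log2 fold change was -2.30 ± 0.24 (4.91-fold lower, adjusted p = 0.000155). GFP-high replicate 3 had the highest Ptn value of its group, and without that array the log2 fold change was -2.57 ± 0.17. The within-array difference of Mdk and Ptn, which is read here only as a change between populations, was -1.18, -0.67 and -1.80 in GFP-high arrays and -4.80, -4.41 and -4.81 in GFP-negative arrays. The balance between the ligands thus shifted towards midkine by 3.46 on the log2 scale in GFP-high cells, in all 3 arrays and beyond the pooled SD of 0.43. The exact permutation test gave p = 0.10 (two-sided), the smallest value that 3 against 3 arrays allow. That outcome was fixed by the separate results, with Mdk higher and Ptn lower in every GFP-high array, and adds nothing to them.

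Ptprz1, the receptor phosphatase shared by both ligands, fell with pleiotrophin. Its log2 values were 6.73, 6.94 and 8.08 in GFP-high arrays, against 9.35, 10.06 and 9.63 in GFP-negative arrays. The groups were separated by 1.27, and the spread was larger in GFP-high cells, with replicate 3 again highest. The log2 fold change was -2.43 ± 0.34 (5.38-fold lower, adjusted p = 0.000698), and -2.84 ± 0.21 without that array. The neuroendocrine markers had a list median of -2.19 in the same comparison.

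The promoters of Ptn and Ptprz1 are shown because both genes fell. RefSeq promoter windows (build GRCm38.p6) were at hand for 8 of the 10 genes, not for Mdk and Sdc2. The 250 bases before the start assigned to each window were read 5′ to 3′ on the gene's strand. The Ptn window is chr6:36810180-36810429 on the minus strand, and the Ptprz1 window is chr6:22875252-22875501 on the plus strand. The annotated Ptprz1 gene begins at position 22875315, inside this window, so most of the window lies within the gene. Capitals mark every match, on either strand, to 4 short motifs: TGGGAA, the core recognised by the Notch effector RBPJ, CACGCG and CACNAG, recognised by HES1, and GGGCGG, the GC box. No matches overlapped in these 8 windows.
Ptn: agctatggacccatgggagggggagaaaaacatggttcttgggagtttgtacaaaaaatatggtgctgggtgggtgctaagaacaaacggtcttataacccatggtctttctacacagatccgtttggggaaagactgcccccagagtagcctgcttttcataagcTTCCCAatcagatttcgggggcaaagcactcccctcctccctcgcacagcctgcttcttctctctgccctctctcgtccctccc
Ptprz1: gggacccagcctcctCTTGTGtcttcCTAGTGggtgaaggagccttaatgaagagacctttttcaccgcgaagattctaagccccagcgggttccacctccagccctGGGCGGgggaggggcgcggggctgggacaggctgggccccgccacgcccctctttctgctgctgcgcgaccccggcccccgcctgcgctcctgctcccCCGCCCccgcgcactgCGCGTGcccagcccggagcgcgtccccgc
Ptn held 1 TGGGAA match, written here as its reverse complement, and none of the other motifs. Ptprz1 held 1 CACGCG, 2 CACNAG and 2 GGGCGG matches, of which the CACGCG and GGGCGG matches lie after the annotated gene start. Of all 32851 such windows, 21.6% held TGGGAA, 7.62% CACGCG, 36.7% CACNAG and 32.7% GGGCGG, so single matches are common. The windows differed in base composition: 52.0% of bases were G or C for Ptn and 71.6% for Ptprz1, against a median of 52.4% over all windows.

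Alk, a receptor tyrosine kinase of the nervous system and an oncogene in other tumours, was low in both populations. It read 5.06, 4.87 and 4.55 in GFP-high arrays, against 4.92, 4.61 and 5.20 in GFP-negative arrays. The ranges overlapped, all 6 values lay below the middle of the scale, and the log2 fold change of -0.08 ± 0.19 did not pass (adjusted p = 0.797, 95% interval -0.50 to 0.34). Its dedicated ligand Alkal1 behaved very differently. Alkal1 read 8.69, 8.20 and 8.30 in GFP-high arrays, against 4.06, 3.16 and 4.05 in GFP-negative arrays. The log2 fold change was 4.64 ± 0.25 (adjusted p = 3.85e-06), and its size is uncertain, since the GFP-negative values lay around or below the lower quartiles of the arrays (3.97 to 4.14) and may be background. The second ALK ligand, Alkal2, did not pass (GFP-high 5.67, GFP-negative 5.68, adjusted p = 0.967), nor did the related receptor Ltk (GFP-high 6.63, GFP-negative 6.74, adjusted p = 0.585). These genes were picked out once their values were known. Of the list of ALK ligands, relative and adaptors, 12 measured genes, 3 were higher, 1 lower and 8 did not pass (median 0.10). The share called among all genes was 30%. The adaptor Irs1 (1.13 ± 0.12, and 0.49 in its other row) and the phospholipase Plcg1 (0.83 ± 0.22) rose. The call for Plcg1 (adjusted p = 0.0189) was lost without GFP-high replicate 1 (0.0641), GFP-high replicate 2 (0.0683), GFP-negative replicate 1 (0.0715) or GFP-negative replicate 2 (0.0678). It was also lost in a test without moderation (0.120). In this comparison the list medians were 4.48 for club, 4.0 for alveolar type 2 and 1.83 for alveolar type 1 markers.

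Genes around PTPRZ1 were mostly lower. Of 14 measured genes 2 were higher, 8 lower and 4 did not pass (median -0.47), against 17% of all genes called lower. Tenascin-R (Tnr), a matrix protein of the brain that binds this phosphatase, fell to 6.20 ± 0.49 in GFP-high cells, against 8.68 ± 0.33 in GFP-negative cells (SD, n = 3 each), a change of -2.49 ± 0.26. The neuronal adhesion molecule Nrcam (-2.28 ± 0.25, adjusted p = 0.000212) and the kinase Fyn, a substrate of PTPRZ1 (-1.89 ± 0.16, adjusted p = 5.49e-05), also fell. The counts were the same without GFP-high replicate 3, and the neuroendocrine markers fell alongside (list median -2.19).

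The 4 syndecans did not move together. Sdc1, the syndecan typical of epithelia and plasma cells, and Sdc4, which is widespread and sits at focal adhesions, rose. Sdc3, the syndecan of neurons, fell, and Sdc2, common in mesenchymal and endothelial cells, did not pass. Sdc1 read 9.79, 9.46 and 9.55 in GFP-high arrays, against 6.42, 6.99 and 6.73 in GFP-negative arrays. The nearest arrays were 2.47 apart, and the log2 fold change of 2.88 ± 0.17 (7.38-fold, adjusted p = 5.54e-06) was the highest of the 10 genes. The second row of Sdc1 read 8.42, 8.73 and 8.97 in GFP-high arrays, against 6.40, 6.24 and 6.18 in GFP-negative arrays, a rise of 2.44 ± 0.16 in a fit over all single-gene rows. The rows differed in size and not in direction.

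Sdc4 read 10.89, 10.70 and 10.71 in GFP-high arrays, against 9.30, 9.46 and 8.61 in GFP-negative arrays. It was above the upper quartile of every array (7.06 to 7.15) in both populations, GFP-negative replicate 3 was the lowest array, and the groups did not overlap. The rise was 1.65 ± 0.21 (3.13-fold, adjusted p = 0.000437). Sdc3 read 7.21, 6.98 and 7.56 in GFP-high arrays, against 8.60, 8.46 and 9.42 in GFP-negative arrays. GFP-negative replicate 3 was the highest array, GFP-high replicate 3 the highest of its group, and the gap between the groups was 0.90. The fall was -1.58 ± 0.26 (2.99-fold, adjusted p = 0.00171). Sdc2 ranged over 7.78 to 8.15 in GFP-high cells, against 7.71 to 7.93 in GFP-negative cells. Its difference of 0.13 ± 0.13 did not pass (adjusted p = 0.515), with a 95% interval of -0.17 to 0.43.

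The promoters of Sdc1 and Sdc3 are shown because these paralogs moved in opposite directions. The Sdc1 window is chr12:8771146-8771395 on the plus strand, and the Sdc3 window is chr4:130792287-130792536 on the plus strand, with the same 4 motifs in capitals.
Sdc1: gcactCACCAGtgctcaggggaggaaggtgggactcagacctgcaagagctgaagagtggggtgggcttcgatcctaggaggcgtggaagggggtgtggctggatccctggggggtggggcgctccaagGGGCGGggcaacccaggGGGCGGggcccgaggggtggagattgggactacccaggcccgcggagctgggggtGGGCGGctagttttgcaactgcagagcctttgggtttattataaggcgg
Sdc3: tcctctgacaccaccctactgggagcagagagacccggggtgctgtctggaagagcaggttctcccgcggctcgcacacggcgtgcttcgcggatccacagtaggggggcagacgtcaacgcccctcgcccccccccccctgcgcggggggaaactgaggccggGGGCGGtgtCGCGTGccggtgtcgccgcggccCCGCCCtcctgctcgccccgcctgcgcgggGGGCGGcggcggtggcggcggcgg
Sdc1 held 1 CACNAG and 3 GGGCGG matches, and Sdc3 held 1 CACGCG and 3 GGGCGG matches. Neither window held TGGGAA. The GC box was thus present in both, and Sdc4, with 4 matches, had it as well. Alk, which did not pass, also held 1 CACGCG match, and Lrp1, which rose, held 1 TGGGAA match. The Alk window (chr17:72604308-72604557, minus strand) lies wholly within the annotated gene, which spans 71868988 to 72604702. A relation between motifs and direction of change was not tested. The share of G and C was 66.0% for Sdc1 and 76.4% for Sdc3.

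**Figure D3:**
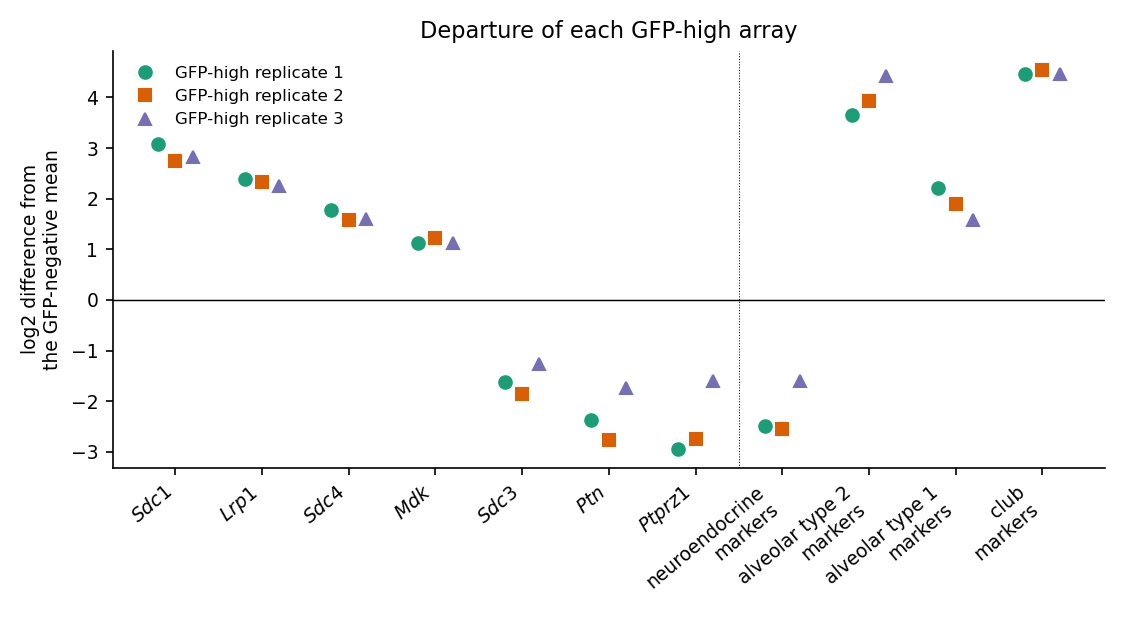
Difference of each GFP-high array from the mean of the GFP-negative arrays (vertical axis, log2), for the 7 genes that passed and, right of the dotted line, for the medians of 4 marker lists. GFP-high replicate 3 (triangles) lies nearest to 0 for Sdc3, Ptn, Ptprz1, Lrp1 and the neuroendocrine, alveolar type 1 and club markers, and farthest from 0 for the alveolar type 2 markers at 4.42.

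Among the 7 genes that passed, the arrays of the GFP-high group differed most in those that fell. Relative to the GFP-negative mean, GFP-high replicates 1, 2 and 3 stood at -2.37, -2.77 and -1.74 for Ptn, at -2.94, -2.74 and -1.60 for Ptprz1, and at -1.62, -1.85 and -1.27 for Sdc3. The neuroendocrine medians of the same arrays were -2.49, -2.54 and -1.59. For the genes that rose the arrays were closer, with 1.13, 1.23 and 1.13 for Mdk and 2.39, 2.33 and 2.25 for Lrp1. The alveolar type 1 medians were 2.22, 1.90 and 1.57, nearest to 0 in replicate 3, the alveolar type 2 medians were 3.65, 3.92 and 4.42, farthest from 0 in replicate 3, and the club medians were 4.46, 4.55 and 4.46.

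Partners and sheddases of the syndecans split evenly. Of 15 measured genes 3 were higher, 3 lower and 9 did not pass (median 0.00), against 30% of all genes called. Timp3, an inhibitor of metalloproteinases that blocks syndecan shedding, rose by 1.71 ± 0.16, and Mmp14, a membrane-bound metalloproteinase that can cleave Sdc1, by 1.30 ± 0.12. Prkca, the protein kinase C isoform that binds the tail of syndecan-4, fell (-1.24 ± 0.19, adjusted p = 0.00126).

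Lrp1, a large endocytic receptor that also binds proteases, lipoproteins and midkine, was higher in GFP-high cells. It read 8.86, 8.81 and 8.73 in GFP-high arrays, against 6.73, 5.85 and 6.84 in GFP-negative arrays. The GFP-high arrays agreed within 0.07 (SD), whereas GFP-negative replicate 2 was lowest and widened its group's SD to 0.54. The log2 fold change was 2.32 ± 0.24 (5.01-fold, adjusted p = 0.000146), and 2.01 without GFP-negative replicate 2. Relatives of Lrp1 changed in both directions. Of the LDL receptor family list of 10 measured genes 3 were higher, 3 lower and 4 did not pass (median 0.16). The share called among all genes was 30%. Lrp4, a receptor for agrin at the neuromuscular junction, rose by 2.56 ± 0.17 and the sorting receptor Sorl1 by 1.88 ± 0.19, and Lrp11 fell (-2.64 ± 0.34, adjusted p = 0.000497). The other row of Lrp11 gave -1.70.

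Nucleolin, a nucleolar protein of ribosome synthesis that reaches the surface of tumour cells, was high in both populations. It ranged over 9.64 to 9.86 in GFP-high cells, against 9.83 to 10.07 in GFP-negative cells, and the ranges overlapped. The difference of -0.24 ± 0.12 did not pass (adjusted p = 0.186, 95% interval -0.51 to 0.04). Of 18 measured genes 1 was higher, 2 lower and 15 did not pass in the nucleolar and ribosome synthesis list (median -0.14), beside 70.0% of all genes that did not pass. The small nucleolar RNA-protein genes Nop56 (-0.81 ± 0.10) and Nop58 (-0.61 ± 0.15) fell and Polr1a, the large subunit of RNA polymerase I, rose (0.99 ± 0.12). Other rows of Nop56 gave -0.08 and -0.96. Nop58 lost its call without GFP-negative replicate 1 (adjusted p = 0.0570) and in a test without moderation (0.0708).

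Other reported binding partners of midkine and pleiotrophin included some of the strongest rises. Of 17 measured genes 4 were higher, 4 lower and 9 did not pass (median -0.11), against 30% of all genes called. Megalin (Lrp2), an endocytic receptor of absorptive epithelia, read 8.61, 7.80 and 8.58 in GFP-high arrays, against 4.29, 4.29 and 4.46 in GFP-negative arrays, a rise of 3.98 ± 0.21 (adjusted p = 3.58e-06). All GFP-high arrays lay above the upper quartile, and all GFP-negative arrays lay below the array median, where values may be background, so the size of the rise is uncertain. Notch2, a Notch receptor reported to bind midkine, rose to 10.04 ± 0.05 in GFP-high cells, against 7.59 ± 0.11 in GFP-negative cells (SD, n = 3 each), and brevican (Bcan), a chondroitin sulfate proteoglycan of the brain matrix, rose by 3.60 ± 0.25, also against a GFP-negative mean below the array median (5.16). Alveolar and club markers moved in the same direction as these genes (list medians 4.0, 1.83 and 4.48 for alveolar type 2, alveolar type 1 and club).

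**Figure D4:**
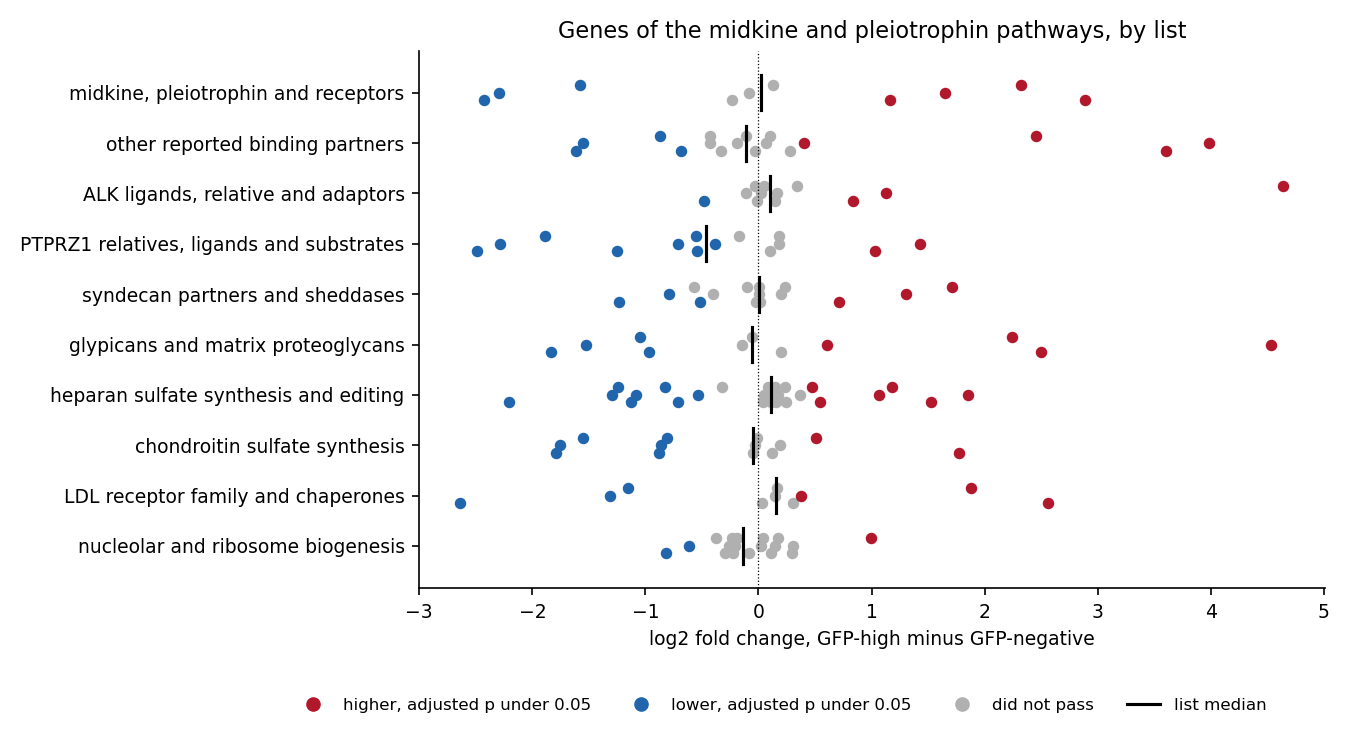
Log2 fold change, GFP-high minus GFP-negative (horizontal axis), of every measured gene in the 10-gene set and in 9 related lists; colour marks calls at an adjusted p under 0.05 and vertical bars the list medians. Each list holds called genes on both sides of 0, and the median farthest from 0 is that of the PTPRZ1 list at -0.47.

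The proteoglycans and enzymes that build the sulfated chains bound by both ligands held genes called in both directions. The share called among all genes was 30%. Of 11 measured glypicans and matrix or surface proteoglycans, 4 were higher, 4 lower and 3 did not pass (median -0.05). Biglycan (Bgn), a small matrix proteoglycan that carries chondroitin or dermatan sulfate rather than heparan sulfate, rose by 4.53 ± 0.19 in the row used. Its other row was higher by 1.67, and the mean of both rows by 3.10 ± 0.18, so the size of the rise depends on the row. Glypican-4 (Gpc4) rose by 2.50 ± 0.10, against a GFP-negative mean below the array median (4.45), and agrin (Agrn) by 2.24 ± 0.18. Among the enzymes of heparan sulfate, of 26 measured genes 6 were higher, 8 lower and 12 did not pass (median 0.11). Sulf2, an extracellular sulfatase that trims heparan sulfate at the cell surface, rose to 10.01 ± 0.12 in GFP-high cells, against 8.16 ± 0.16 in GFP-negative cells (SD, n = 3 each), a change of 1.86 ± 0.13. The 3-O-sulfotransferase Hs3st3b1 rose (1.52 ± 0.14) and the N-sulfotransferase Ndst3 fell (-2.20 ± 0.29).

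Among the enzymes of chondroitin sulfate, of 13 measured genes 2 were higher, 6 lower and 5 did not pass (median -0.05). The share called among all genes was 30%. Csgalnact2, which starts the chondroitin chain, rose (1.78 ± 0.13). Chst11, a 4-O-sulfotransferase (-1.79 ± 0.18, adjusted p = 0.000146), and Dse, the epimerase that makes dermatan sulfate (-1.75 ± 0.23, adjusted p = 0.000472), fell. Counts for all 3 of these lists were the same without GFP-high replicate 3. Neuroendocrine markers were lower (list median -2.19) and club markers higher (4.48) in the same comparison.

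The profiles most like those of the ligands were sought by the root-mean-square difference between log2 values, each gene centred on its own mean over the 6 arrays. For Mdk the nearest genes were Etl4 (0.0347), the apoptosis regulator Bmf (0.0518) and the secreted signal Shh (0.0537), against a median of 0.622 over all genes compared. Shh read 5.99, 6.01 and 5.93 in GFP-high arrays, against 4.80, 4.77 and 4.70 in GFP-negative arrays. For Ptn they were the imprinted gene Nnat (0.0269) and the nuclear factors Tshz3 (0.0662) and Tox (0.0823), against a median of 1.19. Nnat read 8.09, 7.63 and 8.70 in GFP-high arrays, against 10.59, 10.28 and 10.42 in GFP-negative arrays, which repeats the order of the GFP-high arrays seen for Ptn. These are descriptions, with no test, since the genes were picked for likeness. The other rows of Etl4 (1.59) and Nnat (-1.74) differed in size from the rows used (1.11 and -2.29), not in direction.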

How the data were processed

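The authors made the deposited log2 values with RMA, per the submitters' processing notes. The log2 scale was read from the values, and the version, annotation and build are not given in the sources used. RMA equalises array distributions, which hides any shift common to most genes and compresses low levels. Of 41344 rows, the platform annotation names 1 gene for 23520, several for 1814 and none for 16010; the last 2 kinds were not used. The highest-mean row stood for a gene with several rows (1082 genes). No level filter was applied.

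GFP-high minus GFP-negative was tested for all 22179 genes with limma 3.58.1 in R 4.3.3 (lmFit, eBayes, 4.50 prior and 4 residual degrees of freedom), without a block, two-sided, with Benjamini-Hochberg adjustment and calls under 0.05. Errors are SE for fold changes and SD for levels. With 3 arrays per group, the number of arrays limits the precision. The procedure was tested on simulated data. Named genes are the 10 members, up to 3 called genes with the largest absolute change from each of 9 pathway lists, and the 3 nearest profiles of each ligand. Members, lists and tests were chosen with earlier results of these data known. Of 148 list places 136 were measured; 2 places are older names of Alkal1 and Alkal2. The lists are described by counts and medians, without a list test. Figures used Python 3.11.15 and matplotlib 3.10.9. Alternatives were median centring, quantile normalization, a filter on low genes, other row rules, other variance models, array weights, a replicate block, a minimum change and leaving out each array. GFP-high replicate 3 was also left out of the list counts, a choice made after seeing the data.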

Additional observations from a re-analysis of the deposited data

How the results depend on the processing

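Mdk, Ptn, Ptprz1, Sdc1, Sdc3, Sdc4 and Lrp1 kept their direction and their call under median centring, quantile normalization, the filter on the lowest 30% of genes, other row rules, trend and robust variance, array weights, the replicate block, a test without moderation and each left-out array. Log2 fold changes over left-out arrays were 1.10 to 1.20 for Mdk, -2.57 to -2.06 for Ptn, -2.84 to -2.17 for Ptprz1, 2.73 to 3.02 for Sdc1, -1.76 to -1.28 for Sdc3, 1.39 to 1.81 for Sdc4 and 2.01 to 2.51 for Lrp1. The exception was a test against a minimum absolute log2 fold change of 1, a stricter null by construction: it left 1063 of all genes called (4.79%), 658 higher and 405 lower, against 6661. Under it Mdk (1.16, adjusted p = 1), Sdc3 (-1.58, adjusted p = 0.374) and Sdc4 (1.65, adjusted p = 0.118) were no longer called, and Ptn, Ptprz1, Sdc1 and Lrp1 were. Alk changed sign without GFP-high replicate 3 (0.058) or GFP-negative replicate 3 (0.067), within -0.23 to 0.07 over left-out arrays, and was called under no alternative, and neither was Sdc2 (0.03 to 0.22) or Ncl (-0.31 to -0.18). The shift of Mdk against Ptn was 3.19 to 3.75 over left-out arrays. The labels do not say whether same-numbered samples share a pool, and the samples were treated as unpaired. Deviations of same-numbered arrays from their group means correlated at 0.11, -0.03 and -0.002, which does not settle it. The replicate block gave 6172 calls and changed no call of the 10 genes (Ptn -2.30, adjusted p = 0.000249). Values near the middle of the scale, as for Mdk and Alk, and below it, as in GFP-negative arrays for Alkal1, Lrp2, Bcan and Gpc4 and in GFP-high arrays for Ndst3 and Dse, may be close to background, which limits what their fold changes show. Bgn moved from 4.53 to 3.10 on the mean of both its rows.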

Other observations

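Several genes from the marker lists of other cell types changed, and they were picked out once their values were known. Kdr, a VEGF receptor known from endothelium, rose to 9.72 ± 0.16 in GFP-high cells, against 5.85 ± 0.11 in GFP-negative cells (SD, n = 3 each), a change of 3.87 ± 0.13. Vwf, the clotting factor of endothelium, fell to 8.07 ± 0.43 in GFP-high cells, against 10.14 ± 0.28 in GFP-negative cells (SD, n = 3 each), a change of -2.07 ± 0.23. Lcp1, an actin-bundling protein of leukocytes, rose by 3.25 ± 0.19. Decorin (Dcn), a small proteoglycan of fibroblasts, averaged 9.30 ± 0.83 in GFP-high cells, against 10.77 ± 0.39 in GFP-negative cells (SD, n = 3 each; adjusted p = 0.0175). Msln and 3 more of 6 mesothelial markers were higher, by a list median of 0.64, against 13% of all genes called higher. In GFP-negative cells 0 of the 6 averaged above 5.43, and in GFP-high cells 3 did, so these values may be close to background. The called counts of the endothelial (3 of 10), leukocyte (2 of 8) and fibroblast (1 of 10) lists stood at or below the share of all genes called, 30%. The mesothelial count (4 of 6) stood above it. Of 8 smooth muscle and pericyte markers 2 were higher and 1 lower. Of 7 ciliated markers 1 was higher and 2 lower, and of 8 macrophage markers 1 was higher. No Schwann, glial or erythroid marker passed.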
